A study of Mus musculus with 6 samples.

Results

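The let-7 and miR-98 family comprises the mature miRNAs of the let-7 genes together with miR-98, which share the same seed, the stretch of bases that pairs with target mRNAs. Members were taken by assay name, as every main-strand assay whose name starts with mmu-let-7, plus mmu-miR-98, while names marked # (the opposite strand of the hairpin) were set apart. This gave 9 of the 750 miRNA assays measured, namely let-7a, let-7b, let-7c, let-7d, let-7e, let-7f, let-7g, let-7i and miR-98.

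The study compared Ly6C high (classical) with Ly6C low (non-classical) monocytes of 3 DBA/1 mice, with 1 sample of each subset per mouse, so that 6 samples fell into 2 groups of 3. The mice carried no treatment or engineered allele named in the labels, and their age and sex and the gate used for the subsets are not given in the sources used here. From each sample, 10 ng of total RNA was reverse transcribed, preamplified and measured on TaqMan low-density arrays, in which each well holds 1 PCR assay and returns a threshold cycle (Ct). A lower Ct means more template, 1 cycle being a step of 1 on the log2 scale, and a reaction with no signal is listed at 40.

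Mature let-7 accumulates as cells leave the stem cell state, in which the RNA-binding protein LIN28 blocks the processing of let-7 precursors. Once loaded into the silencing complex, the members repress mRNAs with matching sites, among them those of Ras proteins, of the chromatin protein HMGA2 and of interleukin-6. Ly6C high monocytes are the subset recruited to inflamed tissue and Ly6C low monocytes patrol the vessel wall, so the comparison addresses whether a miRNA family of differentiated cells is present at different levels in the subsets.

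All 9 members were matched by name to mature sequences of RefSeq (GRCm38.p6), each 22 bases long. They are shown because the assays have to tell such similar molecules apart, with the seed, bases 2 to 8 from the 5′ end, in capitals.
mmu-let-7a: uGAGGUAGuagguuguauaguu
mmu-let-7b: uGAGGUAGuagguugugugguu
mmu-let-7c: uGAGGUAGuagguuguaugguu
mmu-let-7d: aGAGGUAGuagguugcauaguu
mmu-let-7e: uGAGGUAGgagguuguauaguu
mmu-let-7f: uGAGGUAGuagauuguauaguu
mmu-let-7g: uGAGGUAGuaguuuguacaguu
mmu-let-7i: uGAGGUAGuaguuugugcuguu
mmu-miR-98: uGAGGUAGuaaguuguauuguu
The 9 members formed 1 seed group, and 11 of the 1679 mature names in the RefSeq table (0.655%) carried the seed. Counting those of the seed, 14 of the 22 positions were identical in all 9, and the differences all lay outside the seed. Over the 36 pairs of members the number of differing bases ran from 1 to 6, and 4 pairs differed by 1 base. With positions counted from 1 at the 5′ end and the base of the member named first written first, these were let-7a and let-7c (A19G), let-7a and let-7e (U9G), let-7a and let-7f (G12A), and let-7b and let-7c (G17A). How far an assay also reads a near-identical member was not tested.

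All 9 members were measured on the card called A here, which holds 375 of the miRNA assays, the others being on a card B. A signal was obtained in 43 of the 54 reactions of the family, at a Ct from 21.97 to 28.97, and 41 of these lay within 0.05 cycles of a whole number. The levels thus come in steps of close to 1 cycle. An assay was tested where 3 or more of its 6 reactions had a Ct under 35, and every member was among the 201 of 750 assays that met this. Of the 9, let-7b, let-7c, let-7d, let-7e and let-7g were detected in all 6 samples, let-7f in 4, and let-7a, let-7i and miR-98 in 3 each. No sample had all 9. In mice 1, 2 and 3, 7, 6 and 8 members were detected in Ly6C high and 8, 7 and 7 in Ly6C low monocytes, so that the number detected overlapped between the subsets.

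**Figure D1:**
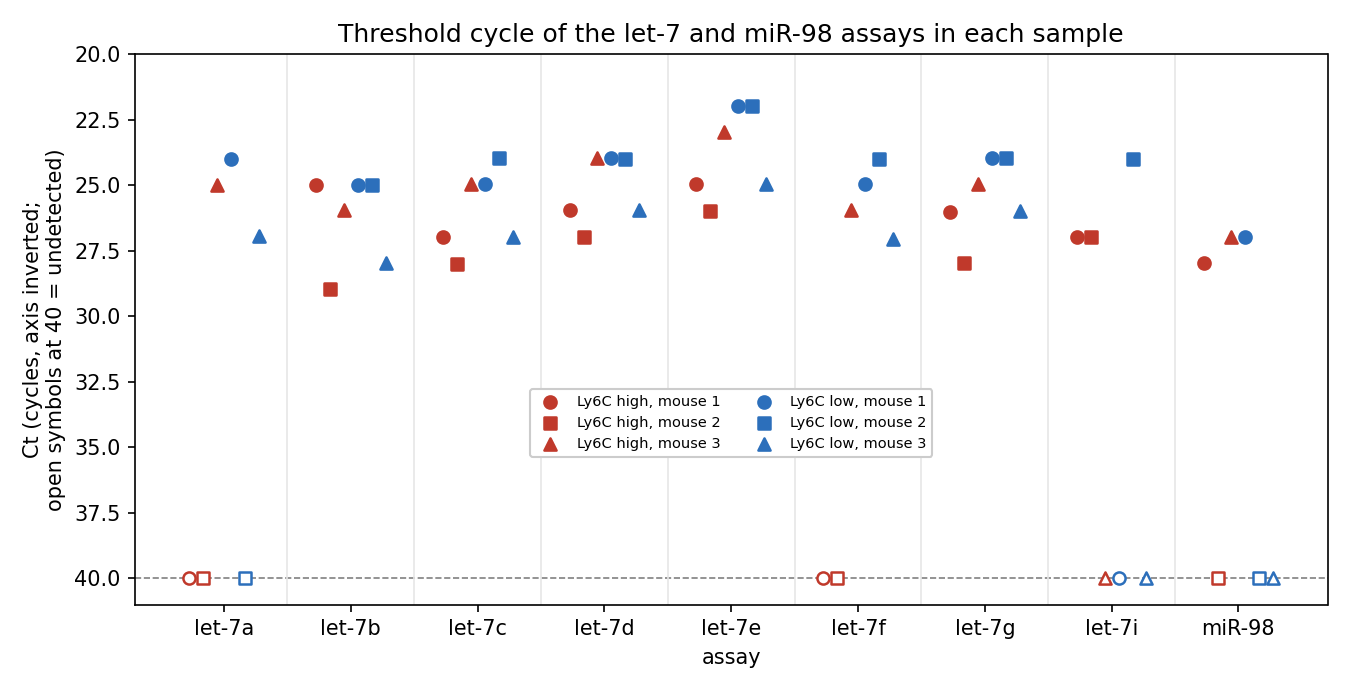
Ct (cycles, inverted axis) of the 9 let-7 and miR-98 assays in the 6 samples, with Ly6C high in red, Ly6C low in blue and 1 symbol shape per mouse. Filled points are single reactions and open points at 40 are reactions with no signal, which occur for let-7a, let-7f, let-7i and miR-98, while the detected reactions lie between 21.97 and 28.97.

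The Ly6C high sample of mouse 1 stands apart on this card and is treated with reserve throughout. Over the 127 tested card A assays, its Ct values gave Spearman coefficients of 0.101 to 0.148 against the 5 remaining samples, beside 0.733 to 0.943 among the latter (assays are no independent replicates). miR-223 and miR-142-3p, both typical of myeloid cells, were undetected in it and had a Ct of 16.96 to 23.97 in the other 5 samples. Of the 54 card A assays with a Ct under 30 in the 5 other samples, 27 were undetected in this sample, whereas the 5 family members among the 54 were all detected. It is called by its label here, and the differences of the members between the subsets are also given without it.

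Levels between samples were compared as −ΔCt, the Ct of U6 small nuclear RNA of the same sample and card minus that of the assay, which is on the log2 scale and rises with the amount of miRNA. In mice 1, 2 and 3, U6 itself gave card A readings of 22.66, 24.66 and 20.77 for Ly6C high and 19.80, 20.76 and 21.92 for Ly6C low monocytes. Within a mouse, U6 thus differed between the subsets by 2.86, 3.90 and −1.15 cycles (Ly6C high minus Ly6C low), and the differences of card A assays move with these values. In bulk samples, fewer cells of a type and less RNA per cell cannot be told apart.

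None of the 9 members differed between the subsets by limma at an adjusted p of 0.05 or less, as was the case for 0 of the 201 assays tested (0%). The adjusted p was 0.985 for each member. At an unadjusted p under 0.05 there were 0 of the 9 members and 2 of the 201 assays (0.995%). No other tool was run across all assays. With 3 samples against 3, the smallest p of a 2-sided exact permutation test is 0.1.

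let-7e, encoded beside miR-125a, gave the strongest signal of the members in both subsets. In mice 1, 2 and 3, its −ΔCt was −2.31, −1.34 and −2.19 in the Ly6C high samples and −2.16, −1.22 and −3.05 in the Ly6C low samples. The lowest value was that of the Ly6C low sample of mouse 3, the samples of mouse 2 were the highest of each subset, and the subsets overlapped. The mean was −1.95 ± 0.53 for Ly6C high and −2.15 ± 0.92 for Ly6C low (SD, n = 3 each), a difference of 0.20 (standard error 1.42) that was smaller than the spread within either subset (exact permutation p = 1.0). It was 0.38 when the deviating sample was left out. Among the detected miRNA assays of card A, let-7e ranked 13 of 111, 18 of 123 and 11 of 135 in the Ly6C high samples and 15 of 134, 15 of 151 and 17 of 118 in the Ly6C low samples. It therefore kept a place among the strongest card A signals in every sample, that of the deviating one included.

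let-7d, whose gene lies in a cluster with genes of let-7a and let-7f, was the only member with a signal in every mouse that read higher for Ly6C high in each of the 3 mice. Its −ΔCt was −3.29, −2.32 and −3.19 in the Ly6C high samples and −4.17, −3.23 and −4.04 in the Ly6C low samples, in the order of the mice. The subsets overlapped, since the Ly6C low value of mouse 2 lay above the Ly6C high value of mouse 1. In the absence of the latter, deviating sample, the Ly6C high values of −2.32 and −3.19 were above all 3 Ly6C low values, the closest being −3.23, by less than a reading step. Within the mice the difference was 0.88, 0.91 and 0.85, which corresponds to folds of 1.84, 1.88 and 1.81. Of the 142 tested assays with a signal in every mouse, 15 (10.6%) read higher for Ly6C high in each mouse, against 1 of the 6 members among them. The means of −2.93 ± 0.53 (SD, n = 3) and −3.81 ± 0.51 (SD, n = 3) lay 0.88 apart (standard error 1.37, limma adjusted p = 0.985, exact permutation p = 0.2). Leaving out the Ly6C high sample of mouse 1 gave 1.06 (standard error 0.85). With each sample left out in turn, the let-7d difference ran from 0.58 (Ly6C high, mouse 2) to 1.17 (Ly6C low, mouse 2).

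The direction of this difference was lost without a normalizer. Before U6 was subtracted, let-7d differed by −1.98, −2.98 and 2.00 in the 3 mice, again in whole cycles, and its mean difference was −0.99. With the global mean or quantile normalization in place of U6, the mean difference was 0.64 or 0.29. The global mean was taken over the assays of the card with a Ct under 35 in all 6 samples. The closeness of the 3 values relative to U6 is finer than the steps of the raw readings. For comparison, the median within-mouse difference of the 40 card A assays with a Ct under 35 in all 6 samples, the 5 members included, was −0.14, 0.88 and 0.84. Relative to that median, let-7d differed by 1.02 in mouse 1, where the Ly6C high sample deviates, and by 0.03 and 0.02 in mice 2 and 3. In mice 2 and 3, let-7d thus moved as the typical card A assay did.

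let-7c, which is made from a pair of genes, had −ΔCt values of −4.31, −3.34 and −4.19 in Ly6C high and of −5.17, −3.21 and −5.06 in Ly6C low monocytes. Both samples of mouse 2 were the highest of their subset, and the subsets overlapped. The within-mouse differences were 0.86, −0.13 and 0.86, and the difference of the means was 0.53 (standard error 1.45, exact permutation p = 0.6). Without the deviating sample of mouse 1 its value was 0.71, and with each sample left out in turn it ran from 0.19 (Ly6C low, mouse 1) to 1.17 (Ly6C low, mouse 2).

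let-7g, the gene of which has no other miRNA gene nearby, had −ΔCt values of −3.34, −3.33 and −4.20 in Ly6C high and of −4.16, −3.20 and −4.05 in Ly6C low monocytes. The highest value belonged to Ly6C low and the lowest to Ly6C high monocytes, so that the ranges of the subsets nearly coincided. The within-mouse differences were 0.81, −0.13 and −0.15, and the difference of the means was 0.18 (standard error 1.37, exact permutation p = 1.0). Leaving out that deviating sample gave 0.04. With each sample left out in turn, the let-7g difference ran from 0.0018 (Ly6C low, mouse 1) to 0.48 (Ly6C low, mouse 2).

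let-7b, which differs from let-7c by 1 base, had −ΔCt values of −2.34, −4.32 and −5.18 in Ly6C high and of −5.21, −4.23 and −6.05 in Ly6C low monocytes. The Ly6C high sample of mouse 1 was far above the other 5, which overlapped between the subsets. Within the mice the difference was 2.87, −0.09 and 0.87. The means were −3.94 ± 1.46 (SD, n = 3) and −5.16 ± 0.91 (SD, n = 3), and their difference of 1.22 (standard error 1.56, exact permutation p = 0.4) was 0.42 without that sample.

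**Figure D2:**
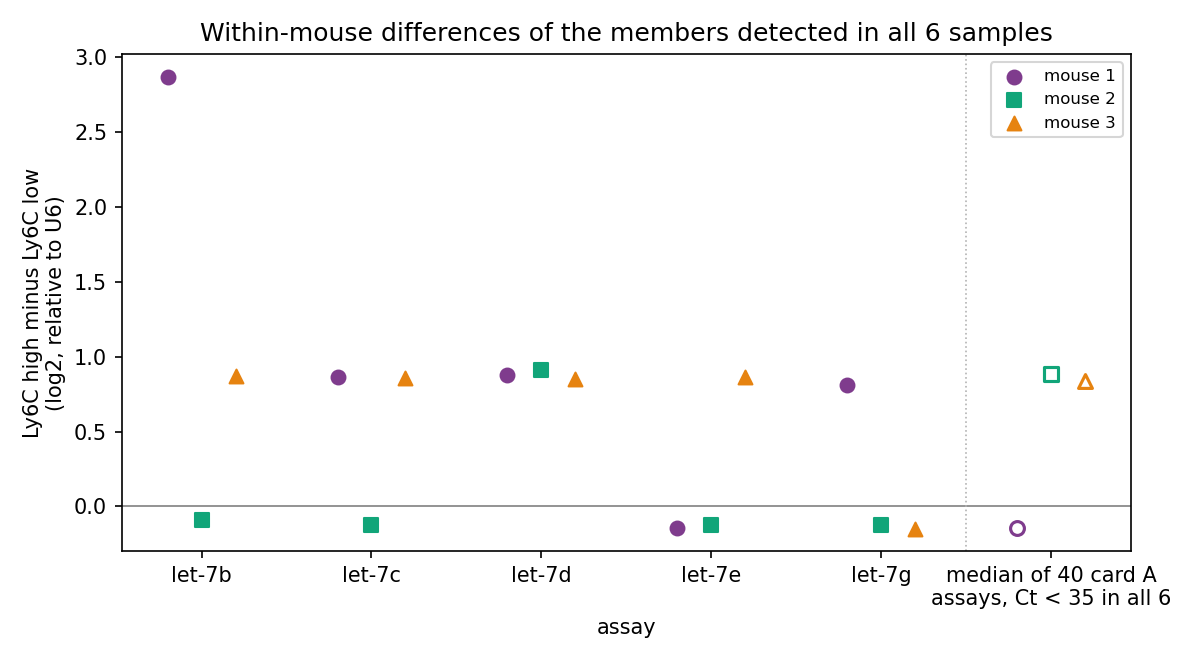
Within-mouse difference (Ly6C high minus Ly6C low, log2, relative to U6) of the 5 members detected in all 6 samples, 1 point per mouse, with open symbols for the median of the 40 card A assays with a Ct under 35 in all 6 samples. let-7d lies at 0.85 to 0.91 in all 3 mice relative to U6, but its mean difference is −0.99 without U6, and let-7b in mouse 1 lies at 2.87.

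Gaps between members of the same sample do not depend on U6. They compare readings of different assays, whose efficiencies were not measured here. In each of the 6 samples let-7e lay above let-7c, let-7d and let-7g. Relative to let-7e, let-7d lay at −0.981, −0.979 and −0.998 in the Ly6C high samples and at −2.00, −2.01 and −0.986 in the Ly6C low samples. The gap was thus 1 cycle wider in the Ly6C low samples of mice 1 and 2 and the same in mouse 3. let-7d minus let-7g was 0.05, 1.01 and 1.01 in the Ly6C high samples and −0.01, −0.03 and 0.01 in the Ly6C low samples. A step of 1 cycle between the subsets was present here in mice 2 and 3 and absent in mouse 1. Of the 10 pairs of steadily detected members, 3 had gaps that did not overlap between the subsets, by at most 0.044 cycles. Steps of 1 cycle in a single mouse also occurred without let-7d, for let-7c and let-7e in mouse 1 and for let-7c and let-7g in mouse 3.

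let-7b stood apart in these gaps. Relative to let-7e it was at −0.03, −2.97 and −2.99 in the Ly6C high samples and at −3.04, −3.01 and −3.00 in the Ly6C low samples. The gap was close to 3 cycles in 5 samples and closed in the Ly6C high sample of mouse 1. As a share of the summed signal of the 5 members, let-7b made up 30.4% in that sample and 5.26% to 6.94% in the others, while let-7e made up 31.0% there and 42.0% to 57.3% in the others. By mean −ΔCt, the order was let-7e, let-7d, let-7g, let-7b and let-7c in Ly6C high monocytes and let-7e, let-7g, let-7d, let-7c and let-7b in Ly6C low monocytes. let-7b preceded let-7c in Ly6C high monocytes only through the deviating sample, as let-7b minus let-7c was 1.97 in mouse 1 and −0.98 in mice 2 and 3. let-7e stood apart from its neighbour in both subsets. The means of let-7g at −3.80 ± 0.52 and let-7d at −3.81 ± 0.51 (SD, n = 3) in Ly6C low monocytes did not differ beyond their spread. The spread of these means includes that of U6, which the gaps leave out. let-7c minus let-7d was from −1.019 to −1.005 in 5 samples and 0.02 in the Ly6C low sample of mouse 2. The summed level of the 5 members was −0.62, −0.25 and −1.10 in the Ly6C high samples and −1.36, −0.31 and −1.80 in the Ly6C low samples on the log2 scale relative to U6. These sums overlapped between the subsets. Within mice 1, 2 and 3 they differed by 0.74, 0.07 and 0.70 relative to U6, by −2.12, −3.83 and 1.85 before U6 was subtracted, and by 0.89, −0.82 and −0.14 relative to the median of the 40 card A assays. The sign of the difference thus depended on the reference in each mouse.

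The other 4 members were each undetected in some samples, where −ΔCt is set by the Ct of 40 and by U6 and is no measured level. let-7f, encoded by a gene beside that of let-7a and by another beside that of miR-98, gave Ct values of 40, 40 and 25.96 in Ly6C high and of 24.94, 24.01 and 27.05 in Ly6C low monocytes. It was undetected in mice 1 and 2 on the Ly6C high side and detected in all Ly6C low samples. Its −ΔCt of −17.34, −15.34 and −5.18 lay below the Ly6C low values of −5.14, −3.24 and −5.13, so that the subsets did not overlap, but in mouse 3 by no more than a fraction of a cycle. Raw Ct values overlapped, as 25.96 lies between the Ly6C low readings.

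Such a separation with Ly6C high below Ly6C low was found for 5 of the 201 assays (2.49%), let-7f being the only member, and the opposite for 6 assays (2.99%), none of them members. let-7f was also lower in Ly6C high monocytes within all 3 mice, as were 21 of the 142 assays with a signal in every mouse (14.8%). Within mice 1, 2 and 3 it differed by −12.20, −12.10 and −0.06. In mouse 3, the single mouse with a signal in both subsets, the sign depended on the reference, at 1.09 before U6 was subtracted and −0.89 relative to the median of the 40 card A assays. The limma difference was −8.12 (standard error 3.40, adjusted p = 0.985, exact permutation p = 0.1). With undetected reactions left out as missing, which leaves 1 Ly6C high sample, it was −0.68 (standard error 1.38). Leaving out the Ly6C high sample of mouse 1 gave −5.76, and leaving out that of mouse 3, the sample with a signal, gave −11.84. The limma adjusted p was 0.150 in the latter fit and 0.150 to 0.9999 over the alternatives that tested let-7f.

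let-7a, which differs from let-7f by 1 base, gave Ct values of 40, 40 and 25.00 in Ly6C high and of 24.00, 40 and 26.95 in Ly6C low monocytes. It was detected in both samples of mouse 3, in neither of mouse 2 and in the Ly6C low sample alone of mouse 1. In mouse 3 its difference was 0.80 relative to U6 and 1.95 before U6 was subtracted.

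let-7i, the member of a gene without miRNA neighbours, gave Ct values of 26.97, 26.98 and 40 in Ly6C high and of 40, 23.99 and 40 in Ly6C low monocytes. It was detected in both samples of mouse 2, in neither of mouse 3 and in the Ly6C high sample alone of mouse 1. In mouse 2 its difference was 0.90 relative to U6 and −2.99 before U6 was subtracted. The median of the 40 card A assays with a Ct under 35 in all 6 samples was 0.88 in that mouse, relative to U6.

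Each sample thus had a signal for either let-7a or let-7i and none had both. The signals of the detected member, at a Ct of 23.99 to 26.98, were well below 40. The pattern of let-7a over the samples was shared by 3 of the 375 card A assays (0.8%), the others being miR-199a-3p and miR-221, and that of let-7i also by 3, the others being miR-340-3p and miR-7a. These names were taken after their values were seen. The sequences of let-7a and let-7i differ by 4 bases (G12U, A17G, U18C and A19U), all outside the seed. A cause of the alternation was not tested.

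miR-98 gave Ct values of 27.97, 40 and 26.99 in Ly6C high and of 26.99, 40 and 40 in Ly6C low monocytes. It was detected in 2 of 3 Ly6C high samples and 1 of 3 Ly6C low samples. Mouse 2 had a signal in neither sample, and mouse 1 alone had one in both. In mouse 1, miR-98 differed by 1.87 relative to U6 and by −0.99 before U6 was subtracted. No other card A assay had its pattern of detection. The limma differences of the 3 members detected in 3 samples were −2.82 (standard error 5.39) for let-7a, 5.22 (standard error 6.33) for let-7i and 5.88 (standard error 4.31) for miR-98. Each was smaller than 1.5 times its standard error and rests on reactions at 40. Leaving out the deviating sample gave −0.30, 3.06 and 4.05 for let-7a, let-7i and miR-98. Over the 6 fits with 1 sample left out in turn, the values ran from −7.69 to −0.17 for let-7a, from 2.03 to 10.52 for let-7i and from 3.67 to 9.70 for miR-98.

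Taking all 9 members, 7 had a higher and 2 (let-7a and let-7f) a lower mean in Ly6C high monocytes relative to U6. Without normalization 2 were higher and 7 lower, with the global mean 5 and 4, and with quantile normalization 6 and 3, so this count follows the scale. The median difference of the members was 0.53, beside −0.45 for the 201 assays. Without normalization both shifted together, to −1.34 and −2.32. Relative to the median of all assays, that of the members lay at 0.98 in the reported fit. Among the filtered alternatives, this value ran from −0.54 (undetected reactions as missing) to 1.59 (mouse 2 lacking its Ly6C high sample). The fit with no filter gave −1.34, which equals the members' median before normalization. Assays undetected in every sample enter that fit, and their difference comes from U6 alone. The −1.34 therefore does not place the members relative to detected miRNAs. When the deviating sample of mouse 1 was left out, the medians were 0.42 and 0.63, and the members lay at −0.21 relative to all assays. Within the mice, the members' median difference was 0.86, −0.09 and 0.85, beside −4.17, 0.88 and 0.82 for the 127 tested card A assays. The value of −4.17 includes undetected reactions of the deviating sample, and over the 40 card A assays with a Ct under 35 in all 6 samples the median in mouse 1 was −0.14. Relative to those 40 assays, the 5 steadily detected members lay at 0.0014 to 3.02 in mouse 1, −1.01 to 0.03 in mouse 2 and −0.99 to 0.04 in mouse 3. let-7e was the member at 0.0014 in mouse 1, let-7d that at 0.03 in mouse 2 and let-7g that at −0.99 in mouse 3.

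The genes of several members lie close together. In the RefSeq annotation of GRCm38.p6, 10 of 12 let-7 and miR-98 genes had another miRNA gene within 10000 bases, all but Mirlet7g and Mirlet7i. Mirlet7a-1 lies 261 bases from Mirlet7f-1, which lies 1714 bases from Mirlet7d. From this cluster let-7d was detected in 6, let-7f in 4 and let-7a in 3 samples. Mirlet7f-2 lies 785 bases from Mir98 and Mirlet7b lies 621 bases from Mirlet7c-2. let-7b and let-7c were detected in every sample, but their gap ran from −1.02 to −0.04 cycles in 5 samples and was 1.97 in the Ly6C high sample of mouse 1. An assay does not tell which gene copy a mature let-7a, let-7c or let-7f came from.

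Other miRNAs known to be encoded in clusters with let-7 genes are miR-99a, miR-99b, miR-100, miR-125a-5p and miR-125b-5p. All 5 were tested, 0 passed the threshold in limma and 0 had an unadjusted p under 0.05, with 1 higher and 4 lower in Ly6C high monocytes and a median difference of −1.80. This direction came from the deviating sample, since without it 5 were higher and 0 lower, with a median of 1.46 and again 0 at an unadjusted p under 0.05 in limma. In that fit the median was 0.63 over the 201 assays and 0.89 over those of card A. Within mouse 2, miR-125a-5p was lower, at −1.11, and the other partners were higher. Within mouse 3, miR-125a-5p was higher, at 0.87, and the other partners were at −0.16 to −0.14. Of the 5, 4 were undetected in the Ly6C high sample of mouse 1, whereas the family kept 7 of its 9 members there. Mirlet7e lies 367 bases from Mir125a, and while let-7e was detected at a Ct of 21.97 to 26.00, miR-125a-5p was undetected in the Ly6C high sample of mouse 1 and had a Ct of 30.97 to 35.98 in the others. The neighbours thus differed by several cycles in every sample. miR-125b-5p was the one with a higher mean, by 1.88 (standard error 1.55) in the fit of all samples, with within-mouse differences of 3.87, 1.91 and −0.14.

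The opposite strands of the hairpins were represented by 8 assays on card B, of which 0 met the filter and none was tested. Signals were obtained for let-7g#, let-7d# and the human-named let-7f-1#, in samples of mouse 2 alone. The RefSeq sequences matched to the former pair by name are shown with bases 2 to 8 in capitals, because their seeds are unlike that of the main strands.
mmu-let-7g-3p: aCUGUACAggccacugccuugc
mmu-let-7d-3p: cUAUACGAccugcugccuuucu
In mouse 2, let-7g# read 27.99 for Ly6C high and 23.97 for Ly6C low monocytes, where let-7g itself had 27.98 and 23.96 on card A. Relative to U6 of its own card, let-7g# was at −3.13 and −3.94, and let-7g at −3.33 and −3.20, in assays of unknown relative efficiency. In mice 1 and 3 the opposite strand was undetected. The only other assay with the let-7 seed was miR-1961, which read 35.98 for Ly6C high monocytes of mouse 1 and gave no signal elsewhere.

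The card A miRNAs outside the family with the most similar profile were found by the root mean square difference between centred −ΔCt values and the family's median in each sample. That median was −4.30, −3.34 and −4.22 in the Ly6C high samples and −5.14, −3.23 and −5.06 in the Ly6C low samples. Both samples of mouse 2 were highest, and the subsets overlapped. Of 118 assays compared over the 6 samples, the closest were miR-200c at 0.46, miR-331-3p at 0.47 and miR-19a at 0.68, beside a median of 3.26. Over the 5 samples without the Ly6C high sample of mouse 1 they were miR-340-5p at 0.03, miR-484 at 0.38 and miR-15a at 0.38, beside a median of 0.98. No assay was in both lists, and the likeness hence depends on that sample.

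Marker miRNAs of myeloid and other cell types were read on the same scale, and their part in the family's values was not tested. The myeloid pair, miR-223 and miR-142-3p, had a summed level of 1.42 to 3.90 in 5 samples and none in the Ly6C high sample of mouse 1. Of 3 lymphocyte markers, miR-150 was the most abundant, or level with miR-181a, in 5 samples and miR-181a in that one, with sums of −2.28, 0.77 and −3.20 in the Ly6C high and −1.07, −0.12 and −1.88 in the Ly6C low samples. The paper also describes miR-150 as expressed in monocytes, more in Ly6C low than in Ly6C high, so it does not mark lymphocytes alone. Of 3 epithelial markers, miR-200c was detected in all 6 samples, miR-141 in 4 and miR-205 in none, with sums from −7.88 to −5.37, in each sample below every one of the 5 steadily detected members of that sample. The erythroid miR-451 and the endothelial and platelet miR-126-3p had Ct values of 28.97 to 32.98 in all samples but the Ly6C high sample of mouse 1, and miR-144 was undetected in all. The liver marker miR-122 was detected in that sample, at a Ct of 28.98, and in both samples of mouse 3, at up to 33.01. Of the muscle markers, miR-1 and miR-133a read 35.96 and 33.94 in the Ly6C high sample of mouse 3 alone, and miR-206 none.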

How the data were processed

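Mouse miRNAs were measured on TaqMan low-density arrays in 6 samples, grouped by the subset and mouse named in their labels. Of the authors' deposited tables, the first holds raw Ct values, a log2 scale of opposite sign, 1 sample per column and undetected reactions at 40. The second holds ΔCt on the same log2 scale, from which the authors had subtracted U6 of the same sample and card; this was checked, and the constant equalled U6 to within the spread of its wells. The third holds the authors' within-mouse ratios and was not used here. The software and threshold behind Ct are not given in the sources used here. The labels name the primers of pool A only, whereas the tables list 768 assays on 2 cards.

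The 18 control wells were left out. The 201 assays in which 3 or more samples had a Ct under 35 were compared on −ΔCt by lmFit and eBayes of limma 3.58.1 (R 4.3.3). The model held no term for the mouse, and p-values were adjusted over all 201 by Benjamini-Hochberg, with a threshold of 0.05. Single assays were compared by a 2-sided exact permutation test in scipy 1.17.1. Other steps used Python 3.11.15, pandas 2.3.3, numpy 2.4.6 and matplotlib 3.10.9. The limma step was tested on simulated data first. Samples of 1 mouse share a number in the labels. Their deviations from the subset means correlated at 0.32, 0.62 and 0.72 over the 201 assays in mice 1, 2 and 3, and at −0.085, 0.41 and 0.41 over those of card A, which holds the family.

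Named miRNAs were the family, its opposite strands, other assays with the same seed, cluster partners, the 3 card A assays with the most similar profile (also found leaving out the Ly6C high sample of mouse 1) and marker lists. Members and lists were chosen with earlier results of these data known. The alternatives were other normalizations (none, the global mean, quantile), filters (Ct under 32 in 3 samples, under 35 in all 6, none), a floor at 35, undetected reactions as missing, the mouse as a block, each sample left out, and mouse 1 left out with the block. The global mean was that of the assays of a card with a Ct under 35 in all 6 samples. The number of arrays limits the precision, and the standard errors also varied with the filter and the handling of undetected reactions.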

Additional observations from a re-analysis of the deposited data

Results flagged for a closer look

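Signals were obtained in opposite-strand assays that enter no comparison, each below the Ct of the plant control assay of the same card and sample. In the Ly6C low sample of mouse 2, let-7g# had a Ct of 23.97, let-7d# of 27.05 and the human-named let-7f-1# of 29.87, where the plant control had 33.97. In the Ly6C high sample of mouse 2, let-7g# had a Ct of 27.99, with the plant control undetected at 40. The Ly6C low sample of mouse 2 also had the most detected miRNA assays on card B, 155, against 39 to 110 in the other 5 samples, and its part in these signals was not tested.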

How the results depend on the processing

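Under each of the 16 alternatives, 0 assays and 0 members passed the threshold in limma. At an unadjusted p under 0.05, 1 to 16 assays and 0 or 1 members were counted, against 2 and 0 in the reported fit. The member was let-7f, or miR-98 without the Ly6C low sample of mouse 1. The 16 (14 higher, 2 lower) came from the blocked fit of mice 2 and 3. Counts of 9 were obtained with undetected reactions as missing and without a filter.

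The paired fit, with the mouse as a replicate block, changed no call. The members' median difference was 0.53 in it, as without it. With 1 sample of each subset per mouse, the block cannot change a difference, only its standard error. The lowest limma adjusted p was 0.949.

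The members' median was −1.34 without normalization and 0.19 to 1.17 with 1 sample left out in turn. Single members changed sign as follows, and apart from the subtraction of U6 itself the cause was not tested. Without normalization the difference was −0.65 for let-7b, −1.34 for let-7c, −0.99 for let-7d, −1.67 for let-7e and −1.69 for let-7g. With the global mean it was −0.042 for let-7e and −0.063 for let-7g, and with quantile normalization −0.59 for let-7g. With 1 sample left out, let-7e ranged from −0.25 to 0.66. In the blocked fit of mice 2 and 3, let-7g was at −0.14, let-7i at −0.12 and let-7a at 2.35. With undetected reactions as missing, let-7i was at −0.089 and let-7a at 0.39. let-7f and miR-98 kept their sign under every alternative that tested them. Except with undetected reactions as missing, these values rest on reactions at 40 or at the floor. For each, the single mouse with a signal in both subsets had the opposite sign before U6 was subtracted. The difference there was 1.09 for let-7f in mouse 3 and −0.99 for miR-98 in mouse 1.

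The standard errors of the 5 steadily detected members were 1.37 to 1.56 in the reported fit. Over the alternatives they ran from 0.22 to 0.44 in the blocked fit of mice 2 and 3, where let-7d differed by 0.88 (standard error 0.22, limma adjusted p = 0.443), to 2.27 to 2.40 without normalization. With all 6 samples kept, they were 0.82 to 1.03 over the assays with a Ct under 35 in all 6. They were 0.70 to 1.01 with undetected reactions as missing. Besides the 3 samples per subset and the readings in whole cycles, the precision thus depended on which assays and reactions entered the fit.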
